A study of Mus musculus with 4 samples.

Results

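The sarcomere is held in register by the Z-disc, the M-band and titin, and its force is passed to the cell membrane through the costamere. The 40 genes described here encode proteins of these structures, together with the muscle ubiquitin ligases that turn them over. They were taken from the deposited gene counts by a list of names, and all 40 were found among the 53465 genes counted and passed the filter on low counts that left 18157 genes. RNA was taken from frozen ventricles on postnatal day 1. The 2 knockout-labelled libraries (Ctnnb1floxP/floxP; alphaMHC-Cre+) came from mice with floxed alleles of Ctnnb1, the gene of β-catenin, and a Cre recombinase under the alphaMHC promoter, which is active in cardiomyocytes. The 2 control libraries (Ctnnb1floxP/floxP; alphaMHC-Cre-) came from mice with the same floxed alleles and no Cre, so the transgene and the deletion cannot be told apart. β-catenin links cadherins to actin at cell-cell junctions and serves as a co-activator in Wnt signalling. The study asked how its loss from heart muscle affects metabolism around birth. The labels do not say that the libraries are from separate animals, so the p-values measure only the spread between these 4 libraries.

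Titin spans from the Z-disc to the M-band as a molecular spring and ruler. At the Z-disc, α-actinin cross-links actin filaments of neighbouring sarcomeres, and a set of LIM and PDZ domain proteins binds to it. Myomesins bridge thick filaments at the M-band, leiomodins and tropomodulin set the length of thin filaments, and vinculin, dystrophin and the sarcoglycans couple the outermost myofibrils to the membrane and the matrix.

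Each library held between 34027143 and 45651797 counts in genes. Ctnnb1 was at 527 and 460 CPM (read counts per library scaled by the trimmed mean of M values) in the knockout-labelled libraries and at 409 and 434 CPM in the controls, so the targeted gene, counted over all its exons, was not lower. Xist was at 602 CPM in knockout-labelled 2 and at most 0.327 CPM in the other libraries, while the Y-linked Kdm5d was at 0 there and at 37.4 CPM or more in the others. The summed level of 6 T cell and thymus markers was 1.76 and 1.29 CPM in the knockout-labelled libraries and 254 and 5.09 CPM in controls 1 and 2. The 8 cardiomyocyte markers define the labelled tissue. They summed to 71270 and 80947 CPM in the knockout-labelled libraries and 59067 and 53393 CPM in the controls. Of the 8, 5 were above both controls, as were 26.5% of all genes tested, and 0 were below both. Myh7 and Ryr2 had log2 fold changes below 0, at -1.16 and -0.26. Mitochondrial genes took 10.2% and 14.4% of gene counts in the knockout-labelled libraries and 5.25% and 7.65% in the controls. The 6 smooth muscle and pericyte markers summed to 1754 and 1509 CPM in the knockout-labelled libraries and 607 and 785 CPM in the controls. Most of the sum in the knockout-labelled libraries was Acta2, the only 1 of the 6 above both controls. Myh11 and Pdgfrb were below both controls, and the median log2 fold change of the 6 was -0.24. All 5 macrophage and leukocyte markers were below both controls, as were 29.7% of all genes tested. In such bulk RNA, a change in the number of cardiomyocytes and a change in RNA per cell cannot be told apart. The part of these library differences in the results below was not tested.

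Which structural genes were called depended on the test, and the calls went both ways. edgeR's quasi-likelihood test called 0 of the 40 members at an adjusted p under 0.05 over all genes, against 2 genes, or 0.0110%, of all genes tested. At an adjusted p under 0.1 edgeR called Smpx higher and Fbxo32 lower, where 2.83% of all genes were higher and 2.14% lower. With no adjustment, 6 members were higher and 3 were lower at p under 0.05, while the shares over all genes were 11.8% and 11.2%. DESeq2, run as a second test, called 4 members higher, among them the small stretch-responsive muscle protein gene Smpx, and 2 lower, Obsl1 and the ubiquitin ligase gene Fbxo32. Its shares over 17034 genes with an adjusted p were 5.58% in the upward direction and 4.43% in the downward one, against 10% and 5% of the members. For 12 members each knockout-labelled value exceeded each control value, for 5 each was under it, and the groups overlapped for the other 23. Over all genes those shares were 26.5% above and 29.7% below. The median log2 fold change of the members was 0.20, against -0.02 over all genes tested. Of the 40 values 29 were above 0, as were 8802 of the 18157 over all genes. With scaling by library totals alone both median fold changes were lower, at -0.03 and -0.26. By library, the members' median of log2 CPM minus the control mean was 0.200 in knockout-labelled 1 and 0.035 in knockout-labelled 2. It was 0.026 and -0.026 in controls 1 and 2, so most of the shift lay in knockout-labelled 1. The 95% interval of the log2 fold change lay within -1 to 1 for 19 members, or 47.5%, against 43.0% of all genes. The members took 2.43% and 2.10% of all gene counts in the knockout-labelled libraries and 2.49% and 2.36% in the controls.

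**Figure D1:**
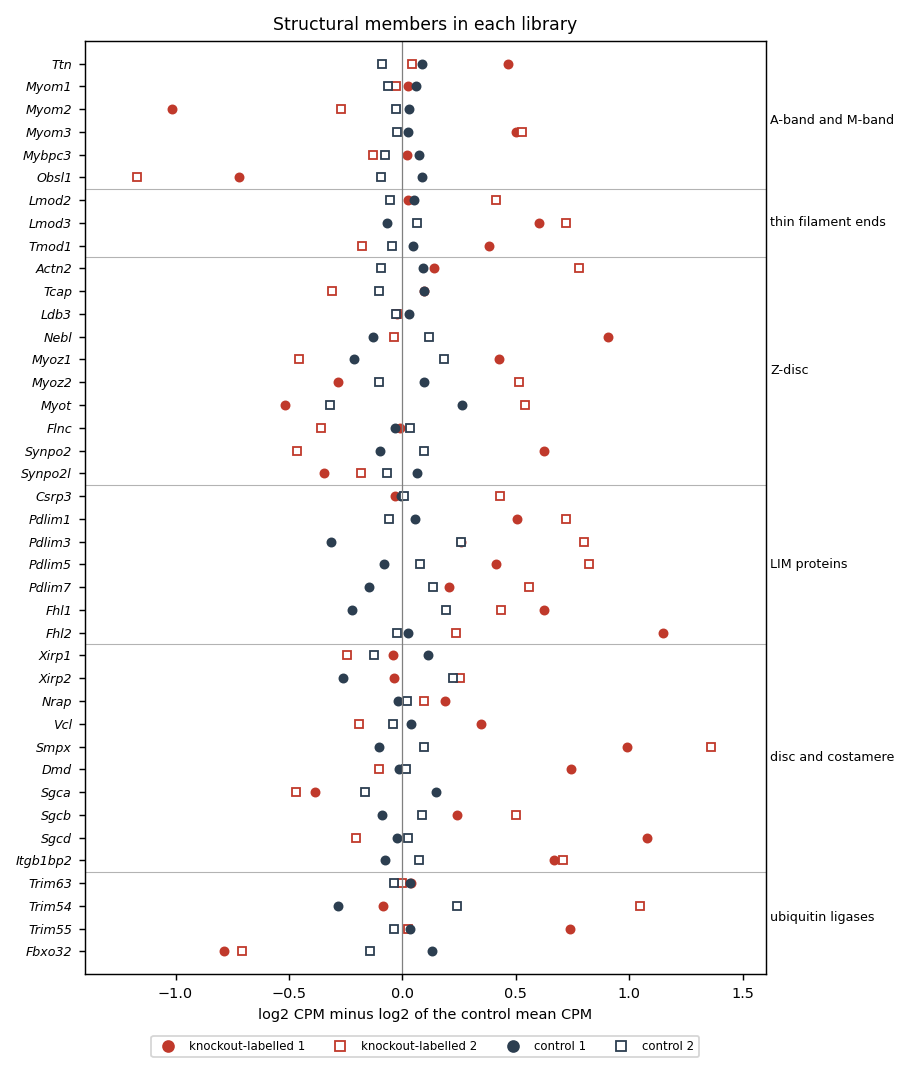
Each row is 1 gene, grouped by role; the x axis is log2 CPM minus the log2 of the control mean, with red marks for the 2 knockout-labelled libraries and dark marks for the 2 controls, filled circles for library 1 and open squares for library 2. The red marks of Smpx, Lmod3, Itgb1bp2 and Pdlim1 lie to the right of both dark marks and those of Obsl1 and Fbxo32 to the left, while for 23 of the 40 genes red and dark marks overlap.

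The promoters of the DESeq2-called members that have an entry in the RefSeq promoter table (GRCm38.p6) are shown with those of Ttn and Vcl, which were not called and carry muscle motifs. Each window runs from 250 bases before to 50 bases after the annotated start and is written on the strand of the gene. Lmod3, Itgb1bp2 and Fbxo32 are named only. Capitals mark a match to a MEF2 site, to a CArG box, which binds serum response factor, or to CATTCC, the core bound by TEAD factors, searched on both strands, and none of these matches overlap. Smpx lies at chrX:157698723-157699022 on the forward strand, Pdlim1 at chr19:40271567-40271866 on the reverse strand and Obsl1 at chr1:75506403-75506702 on the reverse strand. Ttn lies at chr2:76982498-76982797 on the reverse strand and Vcl at chr14:20929148-20929447 on the forward strand.
Smpx: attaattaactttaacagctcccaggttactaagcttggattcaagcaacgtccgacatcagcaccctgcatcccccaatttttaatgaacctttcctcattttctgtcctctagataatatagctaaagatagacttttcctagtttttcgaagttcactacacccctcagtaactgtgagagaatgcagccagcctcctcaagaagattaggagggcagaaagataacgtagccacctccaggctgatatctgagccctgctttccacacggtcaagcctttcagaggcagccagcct
Pdlim1: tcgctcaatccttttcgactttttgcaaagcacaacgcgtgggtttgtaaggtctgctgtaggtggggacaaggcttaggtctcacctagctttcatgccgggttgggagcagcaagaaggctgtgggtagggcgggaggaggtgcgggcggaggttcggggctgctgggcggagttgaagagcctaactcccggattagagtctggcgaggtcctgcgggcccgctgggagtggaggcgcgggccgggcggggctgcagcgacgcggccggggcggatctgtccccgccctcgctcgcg
Obsl1: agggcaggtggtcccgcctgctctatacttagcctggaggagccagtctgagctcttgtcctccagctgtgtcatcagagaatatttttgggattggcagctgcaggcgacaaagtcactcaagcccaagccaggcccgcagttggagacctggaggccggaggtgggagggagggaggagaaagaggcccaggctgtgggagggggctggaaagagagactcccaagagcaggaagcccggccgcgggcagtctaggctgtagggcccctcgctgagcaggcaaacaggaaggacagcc
Ttn: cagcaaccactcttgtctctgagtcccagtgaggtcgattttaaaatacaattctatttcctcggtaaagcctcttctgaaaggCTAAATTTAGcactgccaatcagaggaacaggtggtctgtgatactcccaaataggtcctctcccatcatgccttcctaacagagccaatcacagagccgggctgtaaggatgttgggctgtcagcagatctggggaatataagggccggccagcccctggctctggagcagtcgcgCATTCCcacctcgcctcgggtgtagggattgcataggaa
Vcl: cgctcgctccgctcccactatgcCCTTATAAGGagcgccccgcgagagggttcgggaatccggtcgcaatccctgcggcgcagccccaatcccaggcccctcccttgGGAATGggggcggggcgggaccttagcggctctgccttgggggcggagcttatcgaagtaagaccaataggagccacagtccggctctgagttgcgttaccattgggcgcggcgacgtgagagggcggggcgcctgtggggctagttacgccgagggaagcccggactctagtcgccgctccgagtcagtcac

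In all, 31 of the 40 members had 42 promoter windows in that table. A MEF2 site was found in 23.8% of these windows, against 3.19% of all 32851 windows of the same length. A CArG box was found in 21.4% of the members' windows and in 1.63% of all, and CATTCC in 23.8% and 14.7%. The letters CTTTGAT, a core bound by TCF and LEF factors, the partners of β-catenin, were in 0 of the members' windows and in 3.73% of all. That difference was not tested, and 42 windows are few for a motif this rare. Dmd and Fhl2 had both a MEF2 site and a CArG box in their windows. Smpx, Pdlim1 and Obsl1 held none of the 4 motifs within 300 bases, and Lmod3, Itgb1bp2 and Fbxo32 had no window. Members that were not called also held none, among them Actn2 and Csrp3. The 9 members with a MEF2 site included Ttn, Mybpc3, Myoz2 and Synpo2l. These matches describe the letters only, and the windows of 1 gene can overlap.

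Smpx had the largest fold change of the 40 members. It encodes a small muscle protein of the costamere, on chromosome X from 157698910 to 157752591 (GRCm38, as all coordinates here) on the forward strand, with the identifier ENSMUSG00000041476. Smpx was at 489 and 632 CPM in knockout-labelled libraries, against 229 and 263 CPM in the controls. Both knockout-labelled libraries were well above both controls, a ratio of means of 2.28 and a log2 fold change of 1.19 ± 0.22 (SE, edgeR adjusted p = 0.0925, DESeq2 adjusted p = 3.51e-05). Without any 1 library the edgeR value stayed between 1.00 and 1.41, and with library totals alone it was 0.93. A fit without 1 library leaves 1 in that group, so here and below its spread comes from the other group alone. Without control 1 the DESeq2 call was lost (adjusted p = 0.208), whereas without control 2 Smpx was the only member that DESeq2 called (adjusted p = 0.0349).

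Itgb1bp2 encodes melusin, a chaperone-like protein that binds the cytoplasmic tail of integrin at the costamere. It lies on chromosome X from 101449088 to 101453541 (ENSMUSG00000031312). The gene was at 190.0 and 195 CPM in knockout-labelled libraries, against 113 and 126 CPM in the controls. The groups did not overlap, and the log2 fold change was 0.69 ± 0.17 (SE, edgeR adjusted p = 0.108, DESeq2 adjusted p = 0.00784). DESeq2 did not call Itgb1bp2 without control 1 (adjusted p = 0.773) or without control 2 (adjusted p = 0.429). Fhl1, a LIM-domain protein found at the sarcomere and linked to muscle disease, is also on chromosome X and was at 203 and 178 CPM, against 113 and 151 CPM in the controls (adjusted p = 0.202 in edgeR and 0.130 in DESeq2). Dmd, the gene of dystrophin and the fourth X-linked member, was at 138 and 76.9 CPM in knockout-labelled libraries, against 81.8 and 83.7 CPM in the controls. Only knockout-labelled 1 lay above the controls for Dmd. The 4 X-linked members had a median log2 fold change of 0.61, or 0.71 without knockout-labelled 2, the library with Xist. The medians of the 605 tested genes on chromosome X were 0.17 and 0.24 in the same fits.

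The sarcoglycans, which associate with dystrophin, had fold changes on both sides of 0. Sgca, the α subunit of the membrane complex, was at 49.6 and 46.8 CPM in knockout-labelled libraries, against 71.8 and 57.7 CPM in the controls, with both knockout-labelled values below both controls. Its log2 fold change was -0.43 ± 0.17 (SE), with adjusted p = 0.215 in edgeR and 0.283 in DESeq2. Sgcb, the β subunit, lay the other way, at 82.4 and 98.8 CPM in knockout-labelled libraries, against 65.6 and 74.0 CPM in the controls (log2 fold change 0.38, adjusted p = 0.258 in edgeR). Sgcd, the δ subunit, was at 20.6 and 8.49 CPM in knockout-labelled libraries, against 9.61 and 9.95 CPM in the controls, so its groups overlapped. Neither Sgca nor Sgcb passed a test over all genes, and the difference between the subunits was not tested.

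Neither test called any other member of the costamere or the intercalated disc. Vcl, vinculin, was at 211 and 145 CPM in knockout-labelled libraries, against 170 and 161 CPM in the controls. About 25.5% of its exon length is shared with Ap3m1 on the opposite strand, and the sources used here do not say whether reads were counted by strand, so its level is uncertain. Nrap, a nebulin-related protein of the junctions where myofibrils end, was at 422 and 396 CPM, against 366 and 375 CPM in the controls. The Xin proteins bind actin at the intercalated disc. Xirp1 was at 348 and 302 CPM in knockout-labelled libraries, against 388 and 329 CPM in the controls. Xirp2 was at 28.3 and 34.6 CPM, against 24.2 and 33.9 CPM in the controls. The groups overlapped for both Xin genes and for Vcl, and the 95% intervals of the log2 fold changes of Vcl, Nrap, Xirp1 and Xirp2 lay between -0.63 and 0.67.

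**Figure D2:**
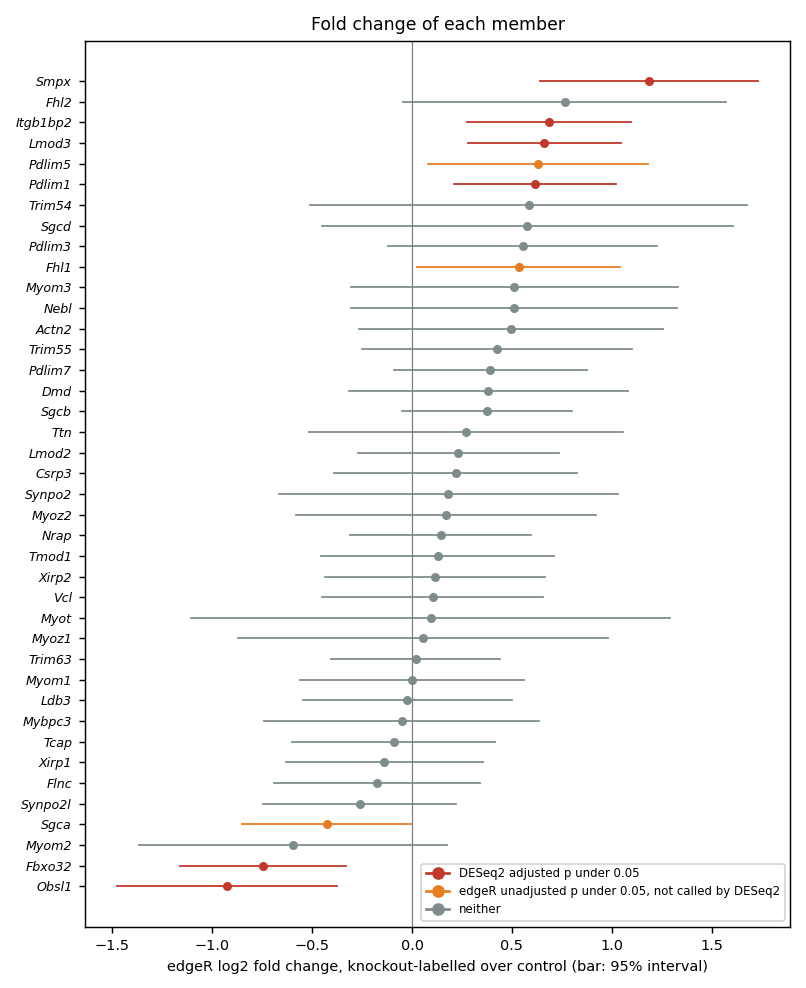
Points are edgeR log2 fold changes of knockout-labelled over control libraries (n = 2 each) with 95% intervals as bars, sorted by size, red marks the 6 members called by DESeq2 and orange the 3 others at an unadjusted edgeR p under 0.05. Smpx stands at the top at 1.19 and Obsl1 at the bottom at -0.93, and the grey bars cross 0.

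Neither Ttn nor Mybpc3, the member of the thick filament, was called. Ttn, which held 0.685% and 0.457% of all gene counts in the knockout-labelled libraries and 0.584% and 0.525% in the controls, was at 7049 and 5254 CPM in knockout-labelled libraries, against 5418 and 4788 CPM in the controls. Knockout-labelled 1 alone stood above the controls, and the log2 fold change was 0.27 ± 0.32 (SE, edgeR adjusted p = 0.654). It was 0.09 without knockout-labelled 1 and 0.48 without knockout-labelled 2. Mybpc3, cardiac myosin-binding protein C, was at 4119 and 3708 CPM in knockout-labelled libraries, against 4273 and 3840 CPM in the controls. Its 95% interval on the log2 scale ran from -0.74 to 0.64, so a doubling lay outside it.

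The 3 myomesins of the M-band had fold changes on both sides of 0, and none was called. Myom1, the myomesin present in all striated muscle, was at 1395 and 1348 CPM in knockout-labelled libraries, against 1432 and 1316 CPM in the controls, the fold change nearest to none among the members (log2 -0.0023 ± 0.23, SE). Myom2, which marks adult heart and fast muscle, was at 916 and 1535 CPM in knockout-labelled libraries, against 1886 and 1817 CPM in the controls. Both knockout-labelled libraries were lower, knockout-labelled 1 by far the more, and the log2 fold change of -0.60 ± 0.32 (SE) did not pass (adjusted p = 0.312 in edgeR and 0.224 in DESeq2). Without knockout-labelled 1 it was -0.22 and without knockout-labelled 2 it was -1.01. Myom3, a myomesin of slow skeletal muscle, was the least abundant member per length, at 2.32 and 2.37 CPM in knockout-labelled libraries, against 1.67 and 1.61 CPM in the controls.

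Obsl1 was the member with the lowest fold change. Its protein connects titin and myomesin at the M-band, and the gene lies on chromosome 1 from 75479310 to 75506452 on the reverse strand (ENSMUSG00000026211). Obsl1 was at 219 and 160 CPM in knockout-labelled libraries, against 384 and 338 CPM in the controls. No library overlapped, and the log2 fold change was -0.93 ± 0.22 (SE, edgeR adjusted p = 0.107, DESeq2 adjusted p = 0.00484). DESeq2 did not call Obsl1 without control 1 (adjusted p = 0.584) or without control 2 (adjusted p = 0.234). Obsl1 also had the highest GC content of the members, 62.5%, and after trends with GC content and length were removed its log2 fold change was -0.37 (adjusted p = 0.220 in edgeR). Speg, a kinase of striated muscle, had a log2 fold change of -0.84, which was -0.26 after that removal.

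At the ends of thin filaments, leiomodins promote and tropomodulin caps growth. Lmod3, the leiomodin of skeletal and fetal muscle, lies on chromosome 6 from 97238534 to 97252759 (ENSMUSG00000044086). Lmod3 was at 94.7 and 103 CPM in knockout-labelled libraries, against 59.5 and 65.2 CPM in the controls. The groups were well separated, with a log2 fold change of 0.66 ± 0.16 (SE, edgeR adjusted p = 0.104, DESeq2 adjusted p = 0.0157). DESeq2 did not call Lmod3 without control 1 (adjusted p = 0.809) or without control 2 (adjusted p = 0.498). Lmod2, the cardiac leiomodin, was at 214 and 280.3 CPM, against 218 and 203 CPM in the controls, and only knockout-labelled 2 lay above them. Per kilobase of exon Lmod2 exceeded Lmod3 in every library, at 125 ± 23.8 and 44.6 ± 2.60 CPM per kilobase in the knockout-labelled libraries and 107 ± 5.43 and 28.2 ± 1.82 in the controls (SD, n = 2 each). Tmod1, the cardiac tropomodulin, was at 345 and 234 CPM, against 274 and 257 CPM in the controls. It shares 32.6% of its exon length with Tstd2 on the opposite strand.

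Neither test called any of the 10 genes of the Z-disc core. Actn2, sarcomeric α-actinin, was at 1989 and 3091 CPM in knockout-labelled libraries, against 1919 and 1690 CPM in the controls. Both knockout-labelled libraries were higher, knockout-labelled 1 by little, and the log2 fold change of 0.49 ± 0.31 (SE) was 0.15 without knockout-labelled 2. Ldb3, the PDZ-LIM protein Cypher that anchors to α-actinin, was at 971 and 972 CPM against 1008 and 967 CPM in the controls. Its 95% interval ran from -0.55 to 0.50. Tcap, telethonin, which clasps the end of titin, was at 175 and 132 CPM, against 175 and 152 CPM in the controls. Nebl, nebulette, the cardiac nebulin relative, was at 546 and 284 CPM, against 267 and 316 CPM in the controls, so that knockout-labelled 1 alone was high.

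The calsarcins tie α-actinin to the phosphatase calcineurin. Myoz2, the cardiac form, was at 492 and 855 CPM in knockout-labelled libraries, against 640.2 and 558 CPM in the controls. The knockout-labelled values lay on both sides of the controls. Myoz1, the fast-muscle form, was at 7.96 and 4.33 CPM, against 5.13 and 6.74 CPM in the controls. Myot, the Z-disc protein myotilin of skeletal muscle, was at 0.925 and 1.93 CPM, against 1.59 and 1.06 CPM in the controls. The summed CPM of the 10 skeletal muscle markers was 57.3 and 46.5 in the knockout-labelled libraries and 36.6 and 53.1 in the controls. Of these sums Myl1 alone held 40.7 and 33.8 CPM, against 16.2 and 38.8 CPM in the controls. The median log2 fold change of the 9 markers tested was -0.50, and 3 markers were under 1 CPM in every library. Flnc, muscle filamin, was at 412 and 324 CPM against 406 and 424 CPM in the controls. The synaptopodin relatives Synpo2 and Synpo2l bind actin and filamin. Synpo2l was at 395 and 442 CPM in knockout-labelled libraries, against 525 and 479 CPM in the controls (log2 fold change -0.26, adjusted p = 0.469 in edgeR). After GC and length trends were removed the value for Synpo2l was 0.08, above 0.

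The 7 genes grouped here as LIM-domain proteins had a median log2 fold change of 0.55. Their values were above 0 throughout, except that Csrp3 was below 0 with library totals alone and without knockout-labelled 2. The group leaves out Ldb3 and Nrap, which also have LIM domains and had log2 fold changes of -0.02 and 0.14. For 5 of the 7 both knockout-labelled values were above both controls, as for 26.5% of all genes. With library totals alone the median was 0.30. These LIM and PDZ-LIM proteins bind α-actinin or titin and are thought to relay mechanical load. DESeq2 called 1 of the 7 higher, against 5.58% of all genes, and edgeR had 3 higher at an unadjusted p under 0.05, against 11.8%.

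Pdlim1 (ENSMUSG00000055044, chromosome 19, 40221173 to 40271842, reverse strand) was the called gene. It was at 92.7 and 108 CPM in knockout-labelled libraries, against 68.1 and 62.8 CPM in the controls, without overlap. The log2 fold change was 0.62 ± 0.17 (SE, edgeR adjusted p = 0.122, DESeq2 adjusted p = 0.0349). The DESeq2 call was lost without control 1 (adjusted p = 0.715), without control 2 (adjusted p = 0.749) and without knockout-labelled 2 (adjusted p = 0.108). Pdlim5, the PDZ-LIM protein ENH, which binds protein kinase C, was at 442 and 587 CPM, against 314 and 351 CPM in the controls. Both of its knockout-labelled values were higher, with a log2 fold change of 0.63 ± 0.23 (SE, edgeR adjusted p = 0.176, DESeq2 adjusted p = 0.0580). Pdlim3, the α-actinin-associated LIM protein, was at 99.8 and 146 CPM in knockout-labelled libraries, against 67.1 and 100.04 CPM in the controls. Pdlim7, enigma, was at 81.9 and 104 CPM, against 64.1 and 78.0 CPM in the controls. Pdlim3 overlapped between the groups by a narrow margin, and Pdlim7 did not.

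Fhl2, the cardiac LIM-only protein, which also binds β-catenin as a cofactor in other cells, had the second highest fold change of the members. Fhl2 was at 1051 and 557 CPM in knockout-labelled libraries, against 482 and 465 CPM in the controls. Both knockout-labelled libraries were higher, but by very different amounts, and the log2 fold change was 0.76 ± 0.33 (SE, edgeR adjusted p = 0.235, DESeq2 adjusted p = 0.1002). It was 0.29 without knockout-labelled 1 and 1.16 without knockout-labelled 2, and DESeq2 called it in the last of these fits. Csrp3, muscle LIM protein, a proposed stretch sensor of the Z-disc, was at 790.0 and 1089 CPM in knockout-labelled libraries, against 803 and 813 CPM in the controls. Only knockout-labelled 2 was above the controls for Csrp3.

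The muscle ubiquitin ligases target sarcomeric proteins for breakdown. Fbxo32, atrogin, the F-box protein known from muscle atrophy (ENSMUSG00000022358, chromosome 15, 58175879 to 58214932, reverse strand), was at 58.0 and 61.3 CPM in knockout-labelled libraries, against 109 and 90.6 CPM in the controls. Its groups did not overlap, and the log2 fold change was -0.75 ± 0.17 (SE, edgeR adjusted p = 0.0988, DESeq2 adjusted p = 0.0163). DESeq2 did not call Fbxo32 without control 1 (adjusted p = 0.856) or without control 2 (adjusted p = 0.369). Trim63, the RING-finger ligase of the M-band that is induced beside Fbxo32 in atrophy, was at 248 and 242 CPM in knockout-labelled libraries, against 248 and 236 CPM in the controls. Its log2 fold change was 0.02, with a 95% interval from -0.40 to 0.44, which did not reach the value of Fbxo32. The intervals of both genes overlapped, and the difference between them was not tested. Trim55, its relative at the M-band, was at 586 and 358 CPM, against 360.5 and 343 CPM in the controls, so that only knockout-labelled 1 was apart. Trim54, the third RING-finger relative, was at 4.01 and 8.79 CPM, against 3.50 and 5.03 CPM in the controls. Trim54 shares 26.6% of its exon length with Gm15469 on the opposite strand.

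**Figure D3:**
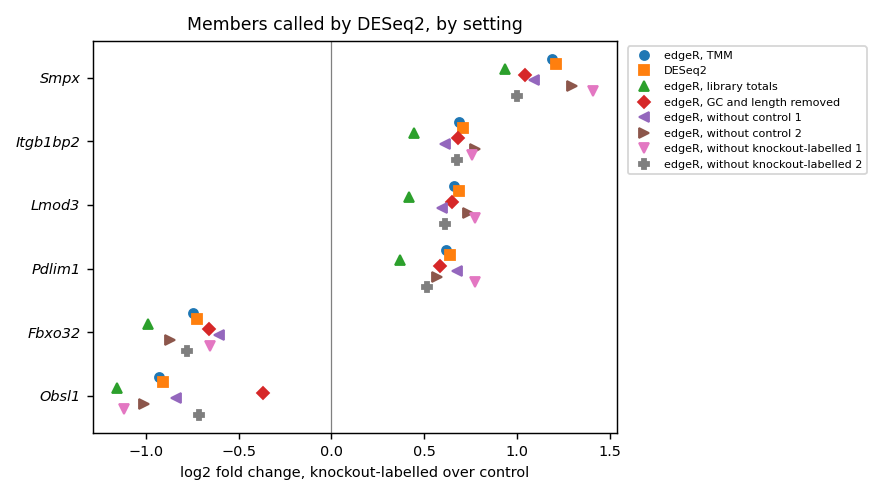
The 6 members called by DESeq2 are shown with their log2 fold change, knockout-labelled over control, in the edgeR fit, in DESeq2 and under 6 other settings of edgeR, each with its own marker. All markers keep to 1 side of 0 for each gene, and Obsl1 moves to -0.37 after GC and length trends are removed.

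All 6 calls of DESeq2 were also in the authors' deposited table at an adjusted p under 0.05, with log2 fold changes of 1.21 for Smpx and -0.907 for Obsl1, and no other member was. The authors' table rests on the same counts and their notes name DESeq2, so it is not an independent check. That table called 5.83% of its genes higher and 4.62% lower. Which members DESeq2 called changed when a library was left out. Each such fit leaves 1 library in 1 group, so its spread comes from the other group alone. Without control 1 it called 0 of the 40 members, against 1.04% of all genes with an adjusted p, and without control 2 it called 1, against 2.77%. Without knockout-labelled 1 it called 11 of the 40, against 15.9% of all genes, and 6 of these were among the 6 called with all libraries. Without knockout-labelled 2 it called 11, against 8.38% of all genes, and 5 of these were among the 6. Over the other settings of edgeR, leaving aside a block with the replicate numbers of 1 group swapped, the adjusted p ran from 0.0342 to 0.621 for Smpx, from 0.0735 to 0.656 for Fbxo32 and from 0.0570 to 0.649 for Obsl1. The same range was 0.0584 to 0.650 for Pdlim1, 0.0603 to 0.673 for Lmod3 and 0.0672 to 0.686 for Itgb1bp2. Smpx, Lmod3, Itgb1bp2, Obsl1 and Fbxo32 were in both sets of 11. Only the set without knockout-labelled 1 held Pdlim1, Actn2, Myoz2, Csrp3, Pdlim3 and Pdlim5 as well. Only that without knockout-labelled 2 held Myom2, Nebl, Fhl2, Dmd, Sgcd and Trim55.

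The knockout-labelled libraries were farther apart than the controls. For 15 of the 40 members the knockout-labelled libraries differed by more than 0.5 on the log2 scale, and for 3 the controls did. Among 13661 tested genes at or above the lowest mean CPM of a member, 30.3% differed so between the knockout-labelled libraries and 12.1% between the controls, against 37.5% and 7.50% of the members. The median absolute difference of the members was 0.40 between the knockout-labelled libraries and 0.16 between the controls. Of the 15, knockout-labelled 1 was the higher for 9, which included Sgcd, Synpo2, Nebl, Fhl2, Dmd and Trim55, and knockout-labelled 2 for 6, which included Actn2, Myom2, Myoz2 and Trim54. The first 9 had a median exon length of 8.19 kilobases (range 1.89 to 23.8) and the other 6 one of 3.61 kilobases (range 1.44 to 8.85). These ranges overlap, and the 25 members within 0.5 had a median of 4.85 kilobases. A relation to length was not tested. Synpo2, for example, was at 78.6 and 36.9 CPM in knockout-labelled libraries against 47.5 and 54.4 CPM in the controls.

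**Figure D4:**
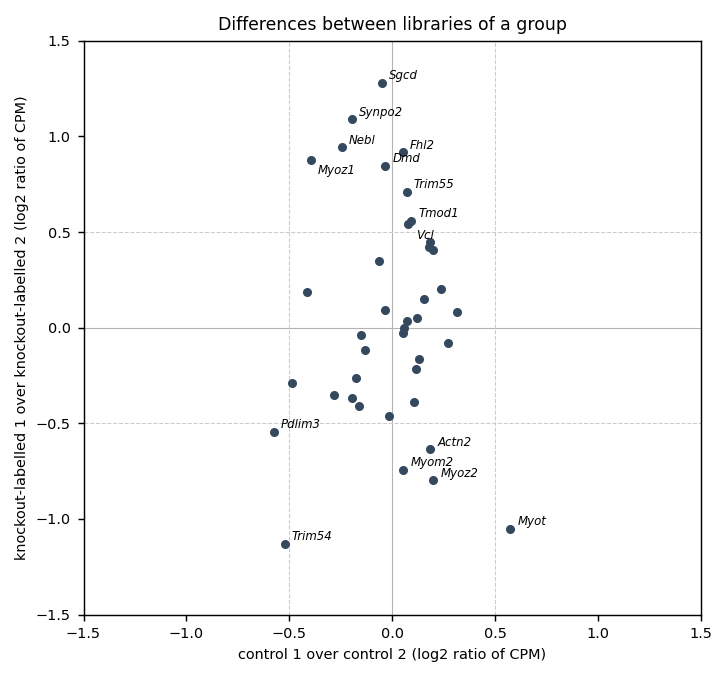
Each point is 1 of the 40 members; the x axis is the log2 ratio of control 1 over control 2 and the y axis that of knockout-labelled 1 over knockout-labelled 2, with dashed lines at 0.5 and -0.5. The cloud is taller than wide: 15 genes pass a dashed line between the knockout-labelled libraries and 3 between the controls.

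Fold changes of the members ran with the GC content of their transcripts. The 10 members under 45% GC had a median log2 fold change of 0.53, the 19 members from 45% to 55% one of 0.14 and the 11 members above 55% one of -0.09. Over all tested genes the medians of the same classes were 0.17, -0.04 and -0.26. Across the 40 members Pearson's r between GC content and log2 fold change was -0.43, across genes that share the same 4 libraries. Over 18135 tested genes it was -0.19. After removal of GC and length trends the medians of the 3 classes of members were 0.45, 0.27 and 0.28, and the median of all members was 0.31 against 0.07 over all genes.

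Per kilobase of exon, Mybpc3 had the highest level, 940.1 ± 69.7 CPM per kilobase in the knockout-labelled libraries and 974 ± 73.5 in the controls (SD, n = 2 each). Actn2 followed at 669 ± 205 and 475 ± 42.7, Fhl2 at 424 ± 184 and 249.7 ± 6.24 and Csrp3 at 352 ± 79.3 and 303 ± 2.45 CPM per kilobase in knockout-labelled and control libraries. In the knockout-labelled libraries the range of Fhl2 overlapped those of Actn2 and Csrp3, while in the controls the ranges were apart, with Actn2 above Csrp3 and Csrp3 above Fhl2. Smpx was at 246 ± 44.3 CPM per kilobase in the knockout-labelled libraries, above the range of Tcap and Ldb3, and at 108 ± 10.4 in the controls, below it. Ttn, counted over 117 kilobases in the union of its annotated exons, was at 52.7 ± 10.9 CPM per kilobase in the knockout-labelled libraries and 43.7 ± 3.81 in the controls. The lowest were Sgcd, Myot and Myom3, with Myom3 at 0.388 CPM per kilobase in the knockout-labelled libraries and 0.272 in the controls.

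**Figure D5:**
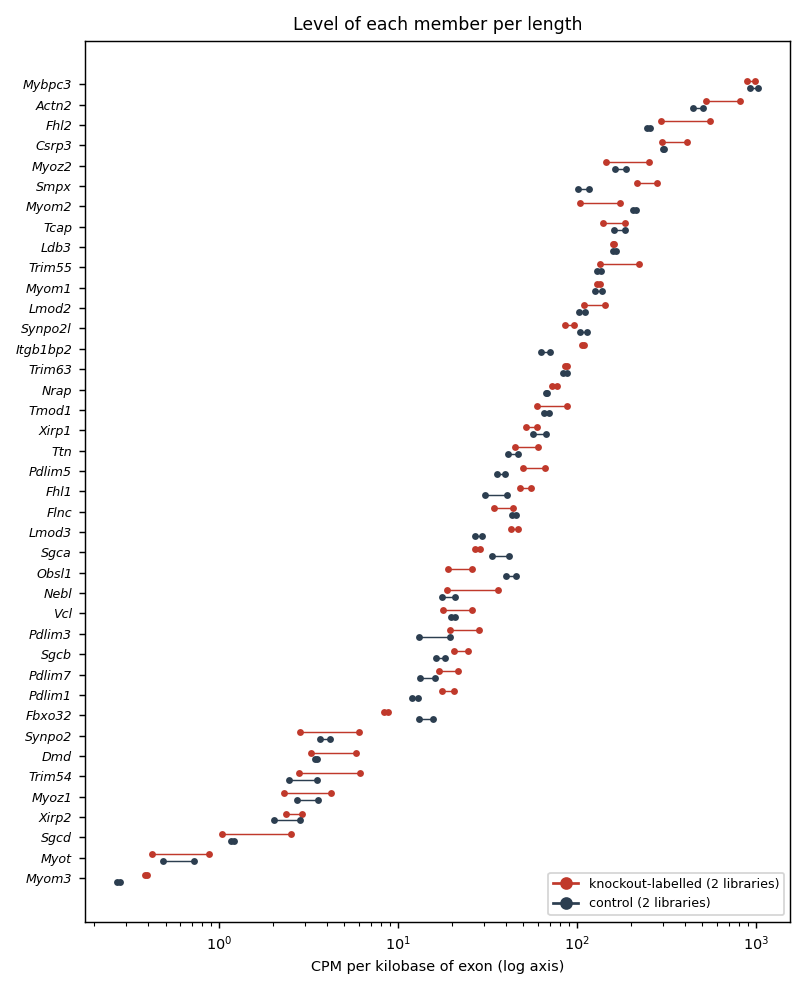
Rows are the 40 members in order of level; the log axis gives CPM per kilobase of exon, with 2 red points for the knockout-labelled libraries and 2 dark points for the controls, joined by a line. Mybpc3 is at the top near 940.1 and Myom3 at the bottom, and the red pair of Smpx, Itgb1bp2 and Lmod3 lies wholly to the right of the dark pair.

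Further genes of the same structures and their regulation were read from the same fits, to be set against the shares over all genes, which were 5.58% higher and 4.43% lower in DESeq2 and 11.8% and 11.2% in edgeR at an unadjusted p under 0.05. Of 35 tested genes of the Z-disc, M-band and sarcomere scaffold that are not members, edgeR called 0 over all genes, placed 2 upward and 5 downward at an unadjusted p under 0.05, and the median log2 fold change was -0.01. DESeq2 called 2 higher, Nexn and Csrp1, and 3 lower, among them Mybphl and Speg. Nexn, an actin-binding protein of the Z-disc, was at 835 and 1086 CPM in knockout-labelled libraries, against 565 and 642 CPM in the controls. Mybphl, a myosin-binding protein of the atria, was at 22.5 and 11.0 CPM, against 46.1 and 82.6 CPM in the controls. The 4 atrial markers summed to 1137 and 951 CPM in the knockout-labelled libraries and to 1204 and 2306 CPM in the controls, and their part in this was not tested.

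Of 36 tested genes of the dystroglycan and integrin linkage, edgeR called 0, with 1 upward and 1 downward at an unadjusted p under 0.05. DESeq2 had 1 call. That gene was Itgb1, the integrin subunit to which melusin binds, at 975 and 999 CPM in knockout-labelled libraries, against 519 and 653 CPM in the controls (log2 fold change 0.75 ± 0.23, SE; adjusted p = 0.140 in edgeR and 0.00844 in DESeq2). Itga7, its muscle partner, was at 41.8 and 28.1 CPM, against 51.1 and 52.0 CPM in the controls (adjusted p = 0.206 in edgeR). Of 21 tested genes of muscle protein turnover DESeq2 called Cul3 and Fbxl22 higher and Foxo4 lower, while edgeR called 0, with 3 upward and 1 downward at an unadjusted p under 0.05. Foxo4, a forkhead factor of the family that drives Fbxo32 and Trim63 in atrophy, was at 52.9 and 44.5 CPM in knockout-labelled libraries, against 102 and 91.9 CPM in the controls. Fbxl22, an F-box protein of the cardiac Z-disc, was at 175 and 247.5 CPM, against 90.9 and 135 CPM in the controls. Of 20 tested regulators of muscle genes, edgeR called 0, with 0 upward and 1 downward at an unadjusted p under 0.05. DESeq2 called Tbx5 alone, a T-box factor of heart development, which was at 37.8 and 31.3 CPM in knockout-labelled libraries, against 59.1 and 81.0 CPM in the controls.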

How the data were processed

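Polyadenylated RNA of P1 ventricles was sequenced from stranded Kapa libraries, per the labels' protocols. The submitters' processing notes name the build GRCm38 and the tools STAR 2.5.3a, HTSeq 0.6.1 and DESeq2 1.18. The authors deposited raw counts for each gene. The deposited series table repeats these counts and adds log2 fold changes with adjusted p-values of the authors. Its 4 normalized columns were not used. The annotation release and the strand setting of the counting were not given in the sources used here.

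Symbols, positions and exon lengths came from GENCODE vM21 (GRCm38), which matched 53274 of 53465 genes. The 5 HTSeq summary categories stayed out of the tests: reads aligned to several places were 23.9% and 29.7% of counted reads in the knockout-labelled libraries and 19.4% and 21.0% in the controls. Counts were filtered by filterByExpr, scaled by TMM and tested with edgeR 4.0.16 (quasi-likelihood, Benjamini-Hochberg over 18157 genes, threshold 0.05) in R 4.3.3, with DESeq2 1.42.0 and limma 3.58.1 as alternatives. Standard errors were derived from the test statistic. GC and length trends were fitted per library with mgcv 1.9.3. The procedure was tested on simulated counts for the sign and size of fold changes. The simulation held no GC, length or tissue differences between libraries. Level per length is CPM divided by the union of exons in kilobases.

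Members and lists were chosen with earlier results of these data known. By rule, values per library are given for Ttn, members at an unadjusted edgeR p under 0.05, paralog families, the 5 highest levels per kilobase and the 3 fold changes nearest 0, and up to 3 genes of each further list are named by smallest p. Values of the remaining members, and genes of a further list called by DESeq2 only, were added after they were seen. Libraries of a group differed by more than counting noise (chi-square over its degrees of freedom 81.3 for knockout-labelled and 34.6 for control libraries). The values of 1 further gene are not reported here.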

Additional observations from a re-analysis of the deposited data

How the results depend on the processing

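The counts of calls changed with the test, the filter, the threshold, the block and single libraries, and the median fold change with library totals, GC and length removal and without knockout-labelled 1. edgeR called 2 genes in all with TMM, 0 to 30 when 1 library was left out, 554 with no filter on low counts, 18 with the replicate number as a block, 0 with the block and GC and length trends removed, and 902 at an adjusted p under 0.1. limma-voom called 0 and DESeq2 1706. At an unadjusted p under 0.05 edgeR had 2137 higher and 2039 lower. Of the members, edgeR called 0 in each fit that left out 1 library, 1 (Smpx) with no filter and 2 (Smpx and Fbxo32) at an adjusted p under 0.1, and DESeq2 called 6. The DESeq2 count ran from 0 to 11 when 1 library was left out. The median log2 fold change of the members was -0.034 with library totals alone, 0.31 after GC and length trends were removed and 0.086 to 0.26 when 1 library was left out. The median of all genes was -0.26 with library totals alone and -0.02 with TMM, and relative to it the members lay 0.23 higher, against 0.22 with TMM, 0.13 without knockout-labelled 1 and 0.28 without control 1.

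Same-numbered libraries deviated from their group means with a correlation of -0.12 over 18157 genes. The labels give no pairing, and with 2 libraries a group this value cannot tell whether there was one. With the block the members' median was 0.17 and 0 members passed. With crossed pairing (the numbers of 1 group swapped), chosen after seeing the data, edgeR called 941 genes and 3 members. None of the 9 members at an unadjusted p under 0.05 changed sign in any setting. Of the others, 11 changed sign with library totals alone, 7 after GC and length trends were removed, 8 with that removal and the block, 8 each without knockout-labelled 1 or 2, 6 without control 1, 2 without control 2, 2 with DESeq2's size factors and 1 in DESeq2. The cause of these shifts was not tested. With 2 libraries a group, 95% intervals lay within a doubling or halving for 19 of 40 members, against 43.0% of all genes.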
